A study of Mus musculus with 12 samples.

Results

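*Cdx1*, *Cdx2*, *Cdx4*, *Nkx1-2*, *Gdf11* and *Nr6a1* are 6 regulators of the growing posterior end of the embryo, chosen by name and matched by symbol to 1 Ensembl identifier each among the 55141 genes of the deposited count table. They were followed in gastruloids, aggregates of 129/SVEV mouse embryonic stem cells that form an axis in culture. All 12 libraries came from gastruloids seeded with 300 cells, given a 24 h pulse of 3 µM CHIR 99021 (a Wnt agonist) from 48 h, embedded in a dextran-PEG hydrogel and freed from it with dextranase at 120 h. The 4 groups of 3 libraries differed in embedding time (72 h or 96 h after seeding) and gel concentration (1.0 mM or 1.5 mM), and are written as time and gel, as in 72 h/1.0 mM. Each library was a pool of about 30 gastruloids, the groups contained no gastruloid grown without a gel, and all of them received the Wnt agonist. The comparisons bear on whether expression of these regulators differed with a denser gel, or with an earlier embedding. An earlier embedding also meant a longer time in the gel, and these cannot be told apart here.

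The 3 Cdx genes encode homeodomain transcription factors that act downstream of Wnt and Fgf signalling in the posterior epiblast and tail bud, where they activate Hox genes of the trunk. *Nkx1-2* encodes a homeodomain factor of the caudal epiblast, in the region that holds neuromesodermal progenitors, which give rise to both spinal cord and paraxial mesoderm and carry T and Sox2 together. *Gdf11* encodes a TGFβ family ligand that drives the change from trunk to tail formation, and *Nr6a1* an orphan nuclear receptor that represses *Pou5f1* as cells leave pluripotency and is active in axial progenitors while the trunk forms.

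Total counts per library ran from 23011791 to 27609422. They were lower in the 6 libraries embedded at 72 h (up to 25149780) than in the 6 embedded at 96 h (from 25398824), and the share of counts on mitochondrial genes also differed, with 1.68% to 2.60% at 72 h and 2.37% to 3.02% at 96 h. A single feature took up to 6.12% of the counts in 72 h/1.5 mM replicate 1 and 4.21% in 96 h/1.5 mM replicate 2. Levels are given as raw counts and as CPM, counts divided by library sizes that were scaled by TMM. The levels of the 6 genes are ordered only in FPKM, the authors' values per length of transcript. Fold changes and adjusted p-values are from edgeR's quasi-likelihood test with Benjamini-Hochberg adjustment over all genes tested, and a gene was called at an adjusted p below 0.05. A positive log2 fold change stands for a higher level after embedding at 72 h, or in 1.5 mM gels. In bulk RNA, fewer cells of a type and less RNA per cell cannot be told apart.

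The loci are given in GRCm38 (mm10), the build of the deposited tables. *Cdx2* (ENSMUSG00000029646) lies at chr5:147300805-147307270 on the minus strand, *Cdx4* (ENSMUSG00000031326) at chrX:103321398-103330592 on the plus strand and *Nkx1-2* (ENSMUSG00000048528) at chr7:132594878-132599637 on the minus strand. *Gdf11* (ENSMUSG00000025352) lies at chr10:128882295-128891718 and *Nr6a1* (ENSMUSG00000063972) at chr2:38723370-38927688, both on the minus strand, while *Cdx1* has the identifier ENSMUSG00000024619. An antisense gene, *Gm16764*, shares 541 of the 3264 exonic bases of *Nkx1-2* (16.6%), and another, *Nr6a1os*, shares none of the exonic bases of *Nr6a1*. The libraries were stranded but the strand setting of the counts is not stated, so *Nkx1-2* is uncertain to that extent. *Gm16764* had 1 count in all 12 libraries together, and *Nr6a1os* had 0 counts in 12 of 12 libraries.

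The bases just before the start of 3 of the genes are shown because these genes span the range of behaviour described below, from an expressed Cdx gene (*Cdx2*) to one at the limit of detection (*Cdx4*) and the gene with the largest fold change (*Nkx1-2*). The sequences are from RefSeq (GRCm38.p6), whose promoter table held 5 of the 6 genes, and each run ends at the base before the annotated gene. They cover chr5:147307271-147307499 for *Cdx2*, chrX:103321148-103321397 for *Cdx4* and chr7:132599638-132599887 for *Nkx1-2*, each read 5′ to 3′ on the strand of the gene. Capitals mark matches to the motifs named in the next paragraph.
Cdx2: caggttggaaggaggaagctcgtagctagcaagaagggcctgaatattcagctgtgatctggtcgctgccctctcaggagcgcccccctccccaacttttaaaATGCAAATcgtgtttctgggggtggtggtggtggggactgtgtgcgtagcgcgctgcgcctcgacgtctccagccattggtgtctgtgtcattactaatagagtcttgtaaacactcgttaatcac
Cdx4: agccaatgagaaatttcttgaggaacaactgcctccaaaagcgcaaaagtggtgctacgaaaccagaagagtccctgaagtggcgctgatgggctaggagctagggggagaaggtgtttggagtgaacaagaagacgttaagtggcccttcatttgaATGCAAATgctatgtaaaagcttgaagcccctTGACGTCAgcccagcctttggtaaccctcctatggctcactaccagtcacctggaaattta
Nkx1-2: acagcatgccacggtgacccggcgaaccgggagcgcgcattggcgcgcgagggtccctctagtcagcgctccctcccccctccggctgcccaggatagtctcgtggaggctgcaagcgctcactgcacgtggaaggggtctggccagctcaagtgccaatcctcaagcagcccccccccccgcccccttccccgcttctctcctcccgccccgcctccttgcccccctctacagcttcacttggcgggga

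The table's windows of 250 bases before each RefSeq start were searched on both strands for 5 motifs, and of the *Cdx2* window the 229 bases outside the annotated gene are printed. The octamer ATGCAAAT, which POU factors such as the product of *Pou5f1* bind, occurred once before *Cdx2* and once before *Cdx4*, beginning 126 and 93 bases before the annotated start. It was present in 1.60% of all 32851 such windows. The cyclic AMP response element TGACGTCA occurred before *Cdx4*, 61 bases from the start, against 1.55% of all windows. The Tcf/Lef motif CTTTGAT (3.21% of windows), the Cdx motif TTTATG (10.8%) and the Nr6a1 motif TCAAGGTCA (0.387%) had no match in the windows of the 5 genes. No matches overlapped each other. The octamer and the cyclic AMP element were added after the sequences had been seen, and a match describes letters only.

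The 6 genes differed in level by orders of magnitude. *Nr6a1* was the most abundant per length, with 19.2 ± 3.74 FPKM (SD over 12 libraries) and a range from 13.1 to 25.2 FPKM. *Gdf11* followed at 6.06 ± 0.713 FPKM, ranging from 4.41 to 6.96 FPKM. *Cdx2* stood at 1.64 ± 0.738 FPKM, with a range from 0.739 to 3.44 FPKM, and these 3 ranges did not overlap. *Nkx1-2* (0.0574 to 0.550 FPKM) and *Cdx1* (0.0182 to 0.392 FPKM) lay below *Cdx2* in every library and could not be ordered against each other, since their ranges overlapped. *Cdx4* had the lowest mean and was listed at 0 FPKM in all but 2 libraries, with a highest value of 0.0650 FPKM in 72 h/1.5 mM replicate 1, where *Cdx1* and *Cdx4* had 4 counts each. Among the 26600 nuclear genes with an FPKM above 0 in any library, the mean level of *Nr6a1* exceeded that of 87.0% and the mean level of *Cdx2* that of 60.7%, whereas *Nkx1-2* exceeded 47.1% and *Cdx1* 45.5%. These levels set the precision: *Nr6a1* rested on 43723 counts over the 12 libraries, *Gdf11* on 9613 and *Cdx2* on 1455, but *Nkx1-2* on 271, *Cdx1* on 129 and *Cdx4* on 6. Replicate 2 was the lowest of its group in 3 of 4 groups for *Cdx2*, for *Gdf11* and for *Nr6a1*, and in 2 of 4 for *Nkx1-2*.

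**Figure D1:**
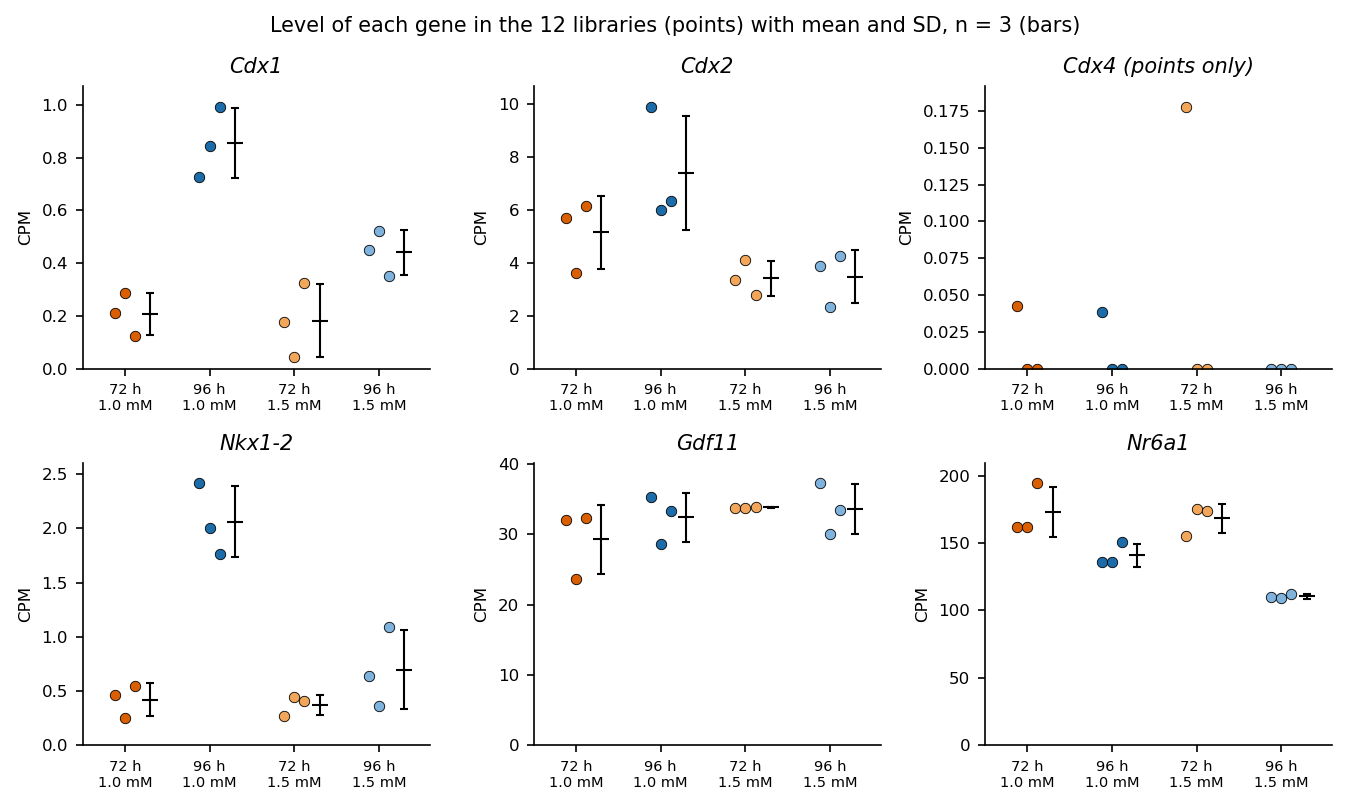
Level of each of the 6 genes in CPM (vertical axis, starting at 0 and scaled per gene) in the 4 groups of embedding time and gel concentration. Points are single libraries and bars give the mean and SD of 3 libraries, with points only for *Cdx4*; the 3 libraries of the 96 h/1.0 mM group are the highest for *Cdx1* (0.728 to 0.993 CPM) and *Nkx1-2* (1.76 to 2.41 CPM).

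Embedding at 72 h was accompanied by lower *Nkx1-2* and *Cdx1* and by higher *Nr6a1*, with *Cdx2* and *Gdf11* not called. Across both gels, *Nkx1-2* was 3.22-fold lower in the 72 h groups (log2 fold change -1.69, SE 0.33, adjusted p = 0.00141) and *Cdx1* 3.18-fold lower (-1.67, SE 0.34, adjusted p = 0.00207). *Cdx1* passed the filter on low counts through the 96 h libraries, in which it was high, and in edgeR without a filter its adjusted p was 0.000157. *Nr6a1* was 1.37-fold higher (0.45, SE 0.07, adjusted p = 0.000216). Of the 16388 genes tested in that comparison, 31.1% were called, 16.2% as higher and 14.8% as lower at 72 h, and *Cdx4* was not tested.

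*Nkx1-2* had 11, 6 and 13 counts in the 72 h/1.0 mM group, against 63, 50 and 48 counts in the 96 h/1.0 mM group. The mean level was 0.417 ± 0.154 CPM (SD, n = 3) against 2.06 ± 0.328 CPM (SD, n = 3), with no overlap between the groups. *Nkx1-2* was thus 4.88-fold lower with the earlier embedding (log2 fold change -2.29, SE 0.34, adjusted p = 0.00195), in a comparison where 9.24% of 15763 genes were called, 5.97% as higher and 3.27% as lower in the 72 h group. *Nkx1-2* passed the filter on low counts in that comparison only through the 96 h group, in which it was high. It was called there in all 18 alternatives, edgeR without a filter among them. In 1.5 mM gels the counts of *Nkx1-2* were 6, 10 and 10 after embedding at 72 h and 17, 9 and 28 at 96 h. Replicate 2 embedded at 96 h lay within the range of the 72 h libraries, and the groups overlapped. The difference was not called there (log2 fold change -0.90, 95% interval -1.94 to 0.14, adjusted p = 0.198), while 19.3% of the 15683 genes tested were, 10.4% as higher and 8.98% as lower at 72 h.

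*Cdx1* had 5, 7 and 3 counts in the 72 h/1.0 mM group and 19, 21 and 27 counts in the 96 h/1.0 mM group. These were mean levels of 0.208 ± 0.0806 CPM and 0.855 ± 0.133 CPM (SD, n = 3 each), and the groups did not overlap. The log2 fold change was -2.01 (SE 0.41, adjusted p = 0.0105). *Cdx1* passed the filter on low counts only through the group in which it was high. In edgeR without a filter the adjusted p was 0.000968, and with the filter but without 96 h/1.0 mM replicate 3 the adjusted p was 0.0557. In 1.5 mM gels it had 4, 1 and 8 counts after embedding at 72 h and 12, 13 and 9 at 96 h, and it was not tested because it did not pass the filter. All 3 of the 96 h libraries were again above all 3 of the 72 h libraries, at 0.441 ± 0.0860 against 0.182 ± 0.140 CPM (SD, n = 3 each).

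*Cdx2*, the most abundant of the 3 Cdx genes, had 134, 88 and 148 counts in the 72 h/1.0 mM group and 258, 149 and 172 counts in the 96 h/1.0 mM group. Its mean levels, 5.14 ± 1.36 CPM and 7.40 ± 2.16 CPM (SD, n = 3 each), had overlapping ranges. The difference was not called (log2 fold change -0.52, 95% interval -1.06 to 0.02, adjusted p = 0.237). In 1.5 mM gels the 72 h and 96 h groups were at 3.41 ± 0.653 and 3.48 ± 1.01 CPM (SD, n = 3 each), with a log2 fold change of -0.04 and an interval from -0.60 to 0.53. *Cdx4* reached 4 counts in 72 h/1.5 mM replicate 1 and 1 count in replicate 1 of each group in 1.0 mM gels. The other 9 libraries had 0 counts, which allows a level of up to 0.134 CPM (3 counts in the smallest library, counting error only), so *Cdx4* was not tested in any comparison.

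*Nr6a1* moved the other way. It had 3825, 3959 and 4665 counts in the 72 h/1.0 mM group and 3544, 3384 and 4102 in the 96 h/1.0 mM group, or 173 ± 18.6 against 141 ± 8.65 CPM (SD, n = 3 each group). The groups did not overlap in CPM, but the difference was not called by edgeR (log2 fold change 0.30, 95% interval 0.10 to 0.50, adjusted p = 0.0678). DESeq2 called it (adjusted p = 0.0442), with 5.76% of 29070 genes called. Shares for DESeq2 are over all genes with a p-value, including any that its own filter left without an adjusted p. In 1.5 mM gels the counts of *Nr6a1* were 3499, 3933 and 4287 at 72 h and 2927, 2714 and 2884 at 96 h. The levels of 168 ± 11.0 and 110 ± 1.76 CPM (SD, n = 3 each) did not overlap, and *Nr6a1* was 1.52-fold higher with the earlier embedding (log2 fold change 0.60, SE 0.06, adjusted p = 0.00139).

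*Gdf11* was the steadiest of the 6 genes, with a highest level 1.58 times the lowest over the 12 libraries. *Nr6a1* was close to it at 1.78 times, against 4.25 times for *Cdx2* and 9.85 times for *Nkx1-2*, a gene of few counts. Its counts were 755, 579 and 776 at 72 h and 922, 713 and 907 at 96 h in 1.0 mM gels. In 1.5 mM gels they were 760, 760 and 838 at 72 h and 994, 750 and 859 at 96 h. The log2 fold change between embedding times was -0.14 in 1.0 mM gels (95% interval -0.44 to 0.15) and 0.01 in 1.5 mM gels (95% interval -0.19 to 0.20). Both intervals leave out a change of 1 on the log2 scale in either direction.

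Counted by overlap alone, 3 of the 6 genes had separate ranges between embedding times in 1.0 mM gels and 2 of 6 in 1.5 mM gels. Among all genes tested, 28.4% and 39.9% had separate ranges in the same comparisons.

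Between gels at the same embedding time, edgeR called no gene, the 6 included. After embedding at 96 h, *Cdx1*, *Cdx2*, *Nkx1-2* and *Nr6a1* were all lower in the 3 libraries from 1.5 mM gels than in the 3 from 1.0 mM gels. These 4 of 6 genes compare with 15.5% of the 15861 genes tested whose ranges did not overlap. *Nkx1-2* stood at 1.76 to 2.41 CPM in 1.0 mM gels and at 0.361 to 1.09 CPM in 1.5 mM gels (log2 fold change -1.56, 95% interval -2.31 to -0.80, adjusted p = 0.184). *Cdx2* stood at 5.98 to 9.89 CPM in 1.0 mM gels and at 2.33 to 4.24 CPM in 1.5 mM gels (log2 fold change -1.09, 95% interval -1.62 to -0.55, adjusted p = 0.184). *Nr6a1* stood at 136 to 151 and 109 to 112 CPM (-0.35, 95% interval -0.48 to -0.22, adjusted p = 0.122). *Cdx1* stood at 0.728 to 0.993 and 0.350 to 0.522 CPM (-0.95, 95% interval -1.69 to -0.21, adjusted p = 0.406). *Gdf11* lay at 32.4 ± 3.45 CPM in 1.0 mM gels and 33.6 ± 3.59 CPM in 1.5 mM gels (SD, n = 3 each).

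The call between gels at 96 h depended on the filter, the tool and the use of a replicate block. edgeR with the filter on low counts called 0 of 15861 genes (0% called), with 1578 genes at an unadjusted p below 0.05. Without that filter edgeR called 333 genes (1.14% of 29248), *Cdx2*, *Nkx1-2* and *Nr6a1* among them. DESeq2, run on the unfiltered table, called 86 genes (0.294%), 3 of them *Cdx2* (adjusted p = 0.00630), *Nkx1-2* (adjusted p = 0.0366) and *Nr6a1* (adjusted p = 0.00119), all lower in 1.5 mM gels. limma-voom called 2 genes, neither of them among the 6. With the filter and a replicate block, edgeR called 289 of 15861 genes, *Cdx2*, *Nkx1-2* and *Nr6a1* among them. The replicate numbers did not pair these libraries by the rule given below (r = 0.435, 0.183 and 0.0941 for replicates 1, 2 and 3). Even so, 12 of 12 libraries correlated best with a library of their own number. All 18 alternatives gave a negative log2 fold change for these 3 genes. They refit the same libraries, whose ranges did not overlap for these genes, so the shared sign is no separate support.

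After embedding at 72 h the gels were closer. *Nkx1-2* was at 0.417 ± 0.154 CPM in 1.0 mM gels and 0.372 ± 0.0938 CPM in 1.5 mM gels, and *Nr6a1* at 173 ± 18.6 and 168 ± 11.0 CPM (SD, n = 3 each). *Cdx2* was at 5.14 ± 1.36 and 3.41 ± 0.653 CPM, which differed by -0.60 on the log2 scale (95% interval -1.14 to -0.05, adjusted p = 0.704) with overlapping ranges. *Gdf11* was the single gene of the 6 whose ranges were separate, at 23.6 to 32.3 CPM in 1.0 mM gels and 33.8 to 34.0 CPM in 1.5 mM gels (log2 fold change 0.21, 95% interval -0.07 to 0.48, adjusted p = 0.731), and 11.1% of all genes tested had separate ranges. edgeR called 0 of 15563 genes (0%), with 1074 at an unadjusted p below 0.05, and DESeq2 called 14 genes (0.0489%), none of the 6. Over both embedding times together, 0.0305% of 16388 genes (5 genes) were called between gels, none of the 6, and *Cdx2* had a log2 fold change of -0.85 (95% interval -1.26 to -0.43, adjusted p = 0.125). DESeq2 called *Cdx2* there (adjusted p = 0.00460), among 0.672% of genes.

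**Figure D2:**
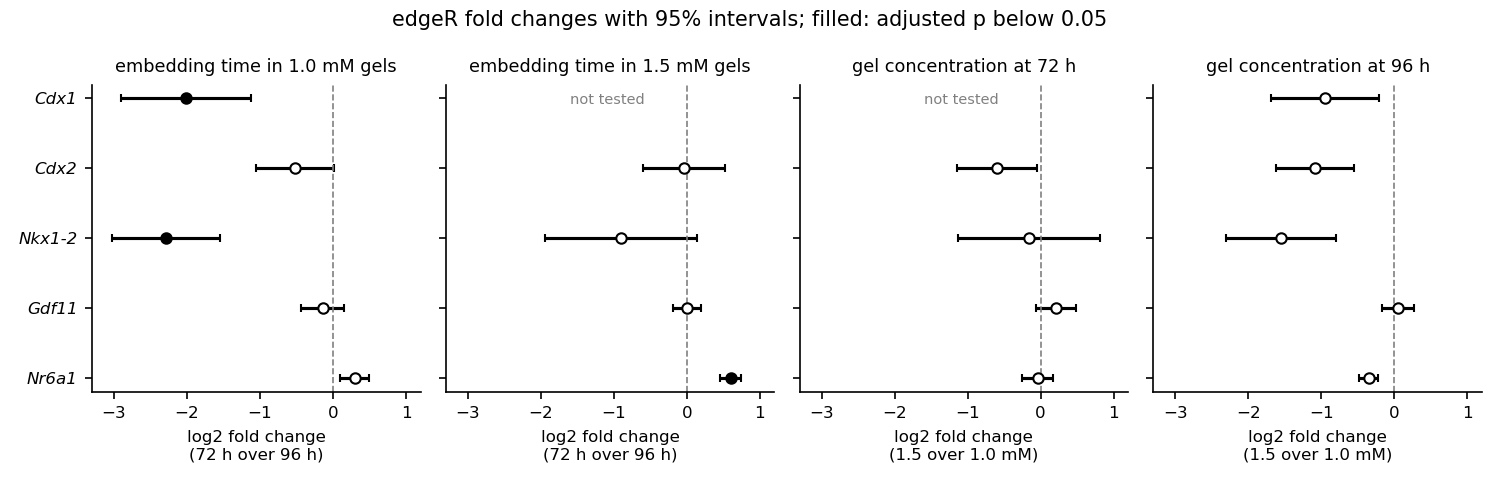
Log2 fold changes (horizontal axis) of the 5 genes with enough counts in the 4 comparisons of 2 groups, with 95% intervals from edgeR; filled points have an adjusted p below 0.05. *Nkx1-2* (-2.29) and *Cdx1* (-2.01) are called between embedding times in 1.0 mM gels. Both passed the filter there only through the group in which they were high. *Nr6a1* is called between embedding times in 1.5 mM gels (0.60). The points for gels at 96 h lie below 0 for all but *Gdf11* (0.05).

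Whether the effect of embedding time differed between gels was tested by an interaction term over the 12 libraries. For *Nkx1-2* the estimated difference between embedding times was smaller in 1.5 mM gels, with an interaction of 1.40 on the log2 scale (95% interval 0.14 to 2.66, unadjusted p = 0.0323, adjusted p = 0.953 in edgeR). For *Nr6a1* it was larger in 1.5 mM gels, by 0.31 (95% interval 0.07 to 0.55, unadjusted p = 0.0140, adjusted p = 0.953 in edgeR). edgeR called 0 of 16388 genes for the interaction (0%), with 708 at an unadjusted p below 0.05, and DESeq2 called 2 genes (0.00637%), none of the 6.

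*T* (brachyury), the mesodermal partner of *Sox2* in neuromesodermal progenitors, was 2.46-fold higher after embedding at 72 h across both gels (log2 fold change 1.30, SE 0.10, adjusted p = 6.44e-07), and *Sox2* was lower (-0.50, SE 0.09, adjusted p = 0.000988). Each gene was also set against *T* within its own library, as the log2 ratio of their CPM with a prior count of 2. Relative to *T*, *Nkx1-2* was lower by 2.72 on the log2 scale after embedding at 72 h, with -8.92 ± 0.459 against -6.20 ± 0.698 (SD, n = 6 each), and all 6 libraries embedded at 72 h lay below all 6 embedded at 96 h. The ratio of *Cdx1* differed by -2.73, that of *Cdx2* by -1.56, that of *Gdf11* by -1.37 and that of *Nr6a1* by -0.85. These differences are given as a description without a p-value, since the rise of *T* enters each of them. The ratio for *Cdx4* is not given because of its counts of 0. For *Nr6a1*, which itself was higher at 72 h, the ratio was lower as *T* rose more, at -0.403 ± 0.254 against 0.452 ± 0.267 (SD, n = 6 each). The ratios of *Cdx2* and *Gdf11* differed while their own levels were not called between embedding times, and *T* is the common denominator of all ratios.

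**Figure D3:**
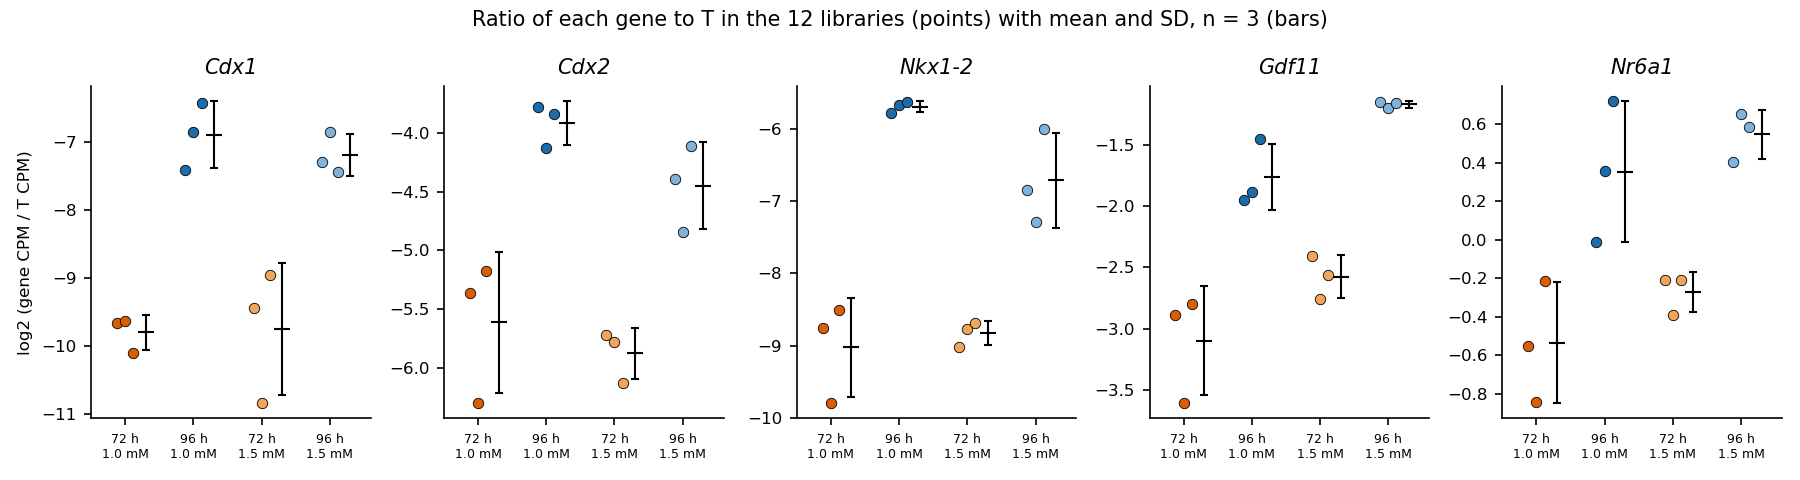
Log2 ratio of each gene's CPM to that of *T*, with a prior count of 2 (vertical axis, scaled per gene), in the 12 libraries by group, with the mean and SD of 3 libraries. In each of the 5 panels the 6 libraries embedded at 72 h lie below the 6 embedded at 96 h, as for *Nkx1-2* (means of -8.92 and -6.20).

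Within the Cdx family, *Cdx2* accounted for most of the summed FPKM in every library. Its share was 94.4 ± 3.53% and 92.6 ± 5.90% in the 72 h/1.0 mM and 72 h/1.5 mM groups, and 87.8 ± 4.23% and 86.0 ± 5.08% in the 96 h/1.0 mM and 96 h/1.5 mM groups (SD, n = 3 each). *Cdx1* had 5.61 ± 3.53% and 5.42 ± 6.74% at 72 h and 12.1 ± 4.47% and 14.0 ± 5.08% at 96 h (SD, n = 3 each). The share of *Cdx1* was lower by 7.50 percentage points at 72 h, which did not pass the threshold after adjustment over the 3 genes (two-sided exact permutation test within gels, p = 0.035, adjusted p = 0.06). Leaving out 96 h/1.0 mM replicate 1 or 72 h/1.5 mM replicate 3 brought the adjusted p to 0.045 and 0.03. *Cdx4* reached 5.91% in the library in which it had 4 counts.

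In the set of 23 genes that mark neuromesodermal progenitors and the tail bud, 20 were tested between embedding times across both gels. Of these, 7 rose and 7 fell with the earlier embedding, against 16.2% and 14.8% of all genes. The median log2 fold change was -0.15 against -0.01 over all genes. Among the 72 h libraries alone, 19 of the 23 passed the filter on low counts. *Hes3*, with 3 to 8 counts there, passed only through the 96 h libraries, in which it was high. The 7 higher genes were *T*, *Evx1*, *Noto*, *Cyp26a1*, *Sp8*, *Wnt5a* and *Sall4*. *Noto* marks the node and notochord, and *Cyp26a1*, which encodes a retinoic acid degrading enzyme of the tail bud, rose by 0.72 (adjusted p = 5.35e-05). The 7 lower genes were *Fgf4*, *Nodal*, *Wnt8a*, *Hes3*, *Hes7*, *Fgf17* and *Sox2*. *Fgf4*, a ligand of the primitive streak and tail bud, fell by 2.47 on the log2 scale (adjusted p = 2.44e-06), and *Wnt8a*, a Wnt ligand of the primitive streak, by 1.48 (adjusted p = 0.00566). *Nkx1-2* and *Cdx1* thus lay among the genes with negative values, between *Wnt8a* and *Nodal*, and *Nr6a1* between *Sp8* and *Wnt5a*. *Msgn1*, *Evx2* and *Wnt3a* were not tested, and *Msgn1*, a gene of early presomitic mesoderm, had at most 3 counts in any library.

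**Figure D4:**
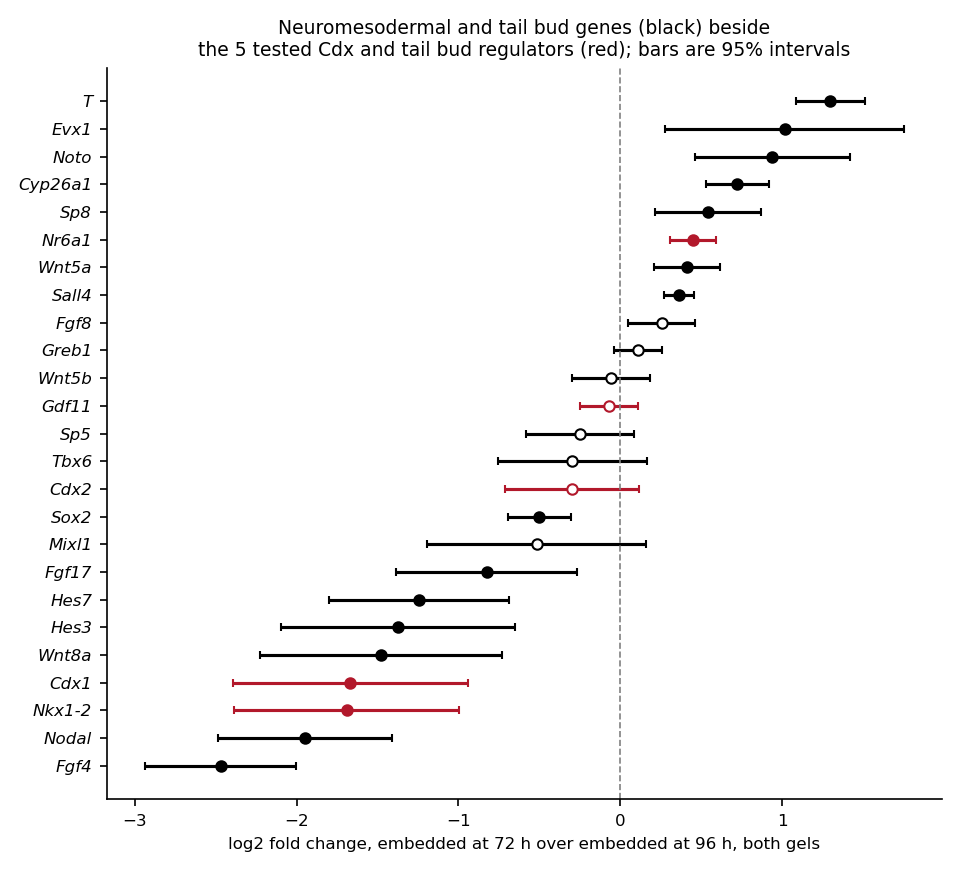
Log2 fold change between embedding times across both gels (horizontal axis, 72 h over 96 h) with 95% intervals for 20 neuromesodermal and tail bud genes (black) and 5 of the 6 regulators (red); filled points have an adjusted p below 0.05. Values run from -2.47 for *Fgf4* to 1.30 for *T*, with *Nkx1-2* at -1.69, *Cdx1* at -1.67 and *Nr6a1* at 0.45.

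Of 17 Wnt ligands, Tcf/Lef factors and feedback genes, 16 were tested. Of these, 3 were higher and 3 lower at 72 h (median log2 fold change 0.00), against 16.2% and 14.8% of all genes. *Lgr5* (1.13), *Dkk1* (0.76) and *Wnt5a* (0.42) were higher, and *Wnt8a* (-1.48), *Notum* (-0.76) and *Lef1* (-0.15) were lower. The direct feedback gene *Axin2* was not called, at 0.09 (95% interval -0.12 to 0.30).

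Of 19 genes that receive, process or inhibit Gdf11, 16 were tested. Of these, 6 were higher and 4 lower at 72 h (median 0.17), against 16.2% and 14.8% of all genes. The receptor *Acvr2b* was higher by 0.51 (adjusted p = 0.00411), as were the signal transducers *Smad2* (0.19), *Smad3* (0.21) and *Smad4* (0.18). Among the proteases, *Tll1* was 5.04-fold higher (log2 fold change 2.33, adjusted p = 2.12e-05) and *Furin* higher by 0.41, whereas *Bmp1* (-0.35) and *Pcsk5* (-0.38) were lower. The inhibitors *Wfikkn1* (-0.89) and *Fst* (-0.42) were lower. The related ligand gene *Mstn* had 0 counts in all 12 libraries.

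Of 9 genes of the Lin28 axis and the trunk-to-tail transition, all were tested. Of these, 3 were higher and 1 lower at 72 h (median 0.16), against 16.2% and 14.8% of all genes. *Pou5f1*, a pluripotency factor and a target of Nr6a1, was lower by 1.29 (adjusted p = 5.49e-06). *Nr6a1* was higher at 72 h, and a link between these genes was not tested. After embedding at 96 h, mean *Pou5f1* was 41.7 CPM in 1.0 mM gels and 33.6 CPM in 1.5 mM gels, with overlapping ranges. *Nr6a1* was also lower there in 1.5 mM gels. *Lin28a*, an RNA-binding protein gene of early axial progenitors, was higher by 0.39 (adjusted p = 0.000657) and *Sall4* by 0.36. *Isl1*, a target of Gdf11 signalling in hindlimb progenitors, was higher by 0.93. *Isl1* also stands in the list of cardiac genes, of which 8 of 9 were higher.

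Of the Hox genes, which include targets of the Cdx factors, most of those tested from paralogues 1 to 9 were lower at 72 h. The share over all genes was 14.8%. Of the 12 genes of paralogues 1 to 4 all were tested and 11 were lower (median log2 fold change -1.30), with *Hoxd3* at -3.64 (adjusted p = 1.59e-07), and *Hoxb1* was not called, at 0.16 (95% interval -0.12 to 0.44). *Hoxc4* had 0 to 2 counts at 72 h. It passed the filter on low counts only through the 96 h libraries, in which it was high. Of the 15 genes of paralogues 5 to 9, 9 were tested and 7 were lower (median -2.94). *Hoxb5* (-0.32) and *Hoxb6* (-0.26) were not called. Among the 72 h libraries alone, only 2 of the 15 passed the filter on low counts. The count of lower genes and the median thus rest mostly on genes that passed through the 96 h libraries, in which they were high. *Hoxa5* fell by 2.94 (adjusted p = 4.41e-06), from 48 to 77 counts in the libraries embedded at 96 h to 1 to 10 counts in those embedded at 72 h. *Hoxb9* had 0 to 2 counts after embedding at 72 h, 68 to 121 in the 96 h/1.0 mM group and 22 to 44 in the 96 h/1.5 mM group. None of the 12 genes of paralogues 10 to 13, which follow Gdf11 signalling in the embryo, had more than 6 counts in any library or passed the filter.

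Markers of other cell types moved with embedding time as well, in the comparison where 16.2% of all genes were higher and 14.8% lower at 72 h. Of the marker genes tested, 7 of 8 somite genes and 8 of 12 naive pluripotency and germ-cell-like genes were lower at 72 h, 1 of those 12 was higher, and 8 of 9 cardiac and anterior mesoderm genes were higher. Their summed levels were 293 to 578 CPM at 72 h and 672 to 991 CPM at 96 h for the somite genes, and 421 to 800 CPM and 91.6 to 309 CPM for the cardiac genes. Of the 12 naive pluripotency and germ-cell-like genes, only 10 passed the filter on low counts among the 72 h libraries alone. The rest passed only through the 96 h libraries. Neural tube (4 higher and 2 lower of 8), endothelial (3 and 3 of 7) and presomitic (1 and 1 of 6) markers showed both directions. *Cdx2* is also known from the hindgut and from trophoblast. The 9 endoderm and hindgut markers (2 higher and 1 lower) summed to 373 to 572 CPM at 72 h and 380 to 547 CPM at 96 h. At 72 h, they summed to 526 to 572 CPM in 1.0 mM gels and 373 to 484 CPM in 1.5 mM gels, without overlap. At 96 h, they summed to 470 to 547 CPM in 1.0 mM gels and 380 to 518 CPM in 1.5 mM gels, with overlap. Of the 9 trophoblast markers 4 were tested (1 higher and 1 lower), *Tpbpa* and *Prl3d1* had 0 counts in every library, and *Elf5* and *Gcm1* had at most 3. The list summed to 57.4 to 220 CPM at 72 h and 15.5 to 106 CPM at 96 h, over the 12 libraries mostly *Hand1*, which is also a gene of heart and lateral mesoderm and was not called (log2 fold change 1.19, adjusted p = 0.0654), while *Plac1* was higher (1.41) and *Krt7* lower (-1.08). The part of these markers in the results for the 6 genes was not tested. None of the lists had a called gene between gels at either embedding time in edgeR.

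The genes whose patterns were closest were found as those with the smallest root mean square difference in mean-centred log2 CPM over the 12 libraries, among 13806 genes at a mean of at least 1 CPM. For *Nkx1-2*, whose own values varied by 0.978 around their mean, they were *Sim1* (0.438), *Tex19.1* (0.486) and *Ret* (0.511). *Sim1* stood at 7.61 CPM and 26.6 CPM in 1.0 mM gels (72 h and 96 h) and at 8.90 and 17.2 CPM in 1.5 mM gels. For *Cdx1* (0.881) they were *Sfn* (0.379), *Hsd17b14* (0.432) and *Haglr* (0.433), a long non-coding RNA of the Hoxd cluster. For *Cdx2* (0.550) they were *B3gnt7* (0.265), *AI661453* (0.276) and *Smim3* (0.287). *Gdf11* (0.163) was closest to *Tex2* (0.0662), *Ahdc1* (0.0758) and *Ppfibp2* (0.0792), and *Nr6a1* (0.269) to *Cyfip2* (0.0727), *Arl4a* (0.0773) and *Plekha8* (0.0819). *Cdx4* was left out because its counts were too few.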

How the data were processed

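RNA of pooled gastruloids was selected for poly-A and sequenced as stranded paired ends. The authors trimmed reads with cutadapt 4.4, aligned them to mm10 with STAR 2.7.10b and a customised Ensembl annotation, and deposited counts per gene without normalization, in a table named for HTSeq although the methods give STAR as its source. The authors computed the deposited FPKM values with Cufflinks 2.2.1.3. Their table of DESeq2 comparisons holds fold changes and adjusted p-values and was not used. Total counts per library bound the precision of the 6 genes, and limits on counts of 0 cover counting error only, whereas the 95% intervals of fold changes include the spread between replicates.

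Samples were grouped by the labels, which call all replicates separate samples; the methods call them biological. The 36 mitochondrial genes were left out, as in the authors' tests. Counts were filtered with filterByExpr (minimum count 10, minimum total 15), scaled by TMM and fitted with glmQLFit and glmQLFTest in edgeR 4.0.16 (R 4.3.3), with the libraries of the compared groups only, or all 12 for the comparisons across gels or times and the interaction. The median log2 fold change over all genes was within 0.01 of 0 in each. Alternatives were DESeq2 1.42.0, limma 3.58.1 (voom on counts, limma-trend on log2 FPKM), other filters and normalizations, a replicate block and each library left out in turn. For ratios to *T* and Cdx shares, embedding times were permuted within gels (400 assignments). The tests were checked on simulated data, and replicates of each group differed by more than sampling noise (chi-squared per degree of freedom 9.34 to 113).

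The 6 genes and the gene lists were chosen with earlier results of these data known. Beside the 6, the genes named are *T* and *Sox2*, the up to 4 genes of a list with the smallest p between embedding times across both gels, markers at or near 0, and the 3 genes closest to each. The other genes named in the lists of tail bud, Wnt, Gdf11 and Hox genes, and the antisense genes, were chosen after their values were seen. The replicate numbers did not pair the libraries by the rule that every pair must correlate at over 0.1, except between embedding times in 1.5 mM gels (r = 0.140 to 0.305), where the block changed no call.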

Additional observations from a re-analysis of the deposited data

How the results depend on the processing

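The calls between embedding times across both gels (3 genes) held under all alternatives run except a minimum of 1 CPM in 3 libraries, which removed *Cdx1*, and a required absolute log2 fold change above 1, which *Nr6a1* does not reach (2 genes each). In 1.0 mM gels 2 genes were called, and 1 with the minimum of 1 CPM and in the 3 fits of log2 FPKM, in which *Cdx1* was lost (the cause was not tested). *Nr6a1* was called there in addition without a filter, with DESeq2, in the fit of all 12 libraries and with a replicate block. In 1.5 mM gels the count of 1 fell to 0 with log2(FPKM + 1) and no filter, and when an absolute log2 fold change above 1 was required. Between gels at 96 h the count of 0 became 3 without a filter, 3 with DESeq2 and 3 with the replicate block, each time *Cdx2*, *Nkx1-2* and *Nr6a1*; over all genes edgeR called 0, 333 without a filter, DESeq2 86 and the block 289. Across both embedding times the count of 0 between gels became 2 without a filter (*Cdx2*, *Nkx1-2*) and 1 with DESeq2; over all genes the 5 calls became 512, 211 and, with the block, 81. The cause was not tested. Over all genes, the 1457 calls between embedding times in 1.0 mM gels became 2283 without a filter and 245 to 632 in the FPKM fits, the 3033 in 1.5 mM gels 348 to 1180 and the 5092 across gels 3003 without a filter in the FPKM fit, and the 0 between gels at 72 h 322 without a filter and 43 with the block. The replicate numbers are a hint of shared handling from the data only: 14 of 18 pairs of libraries with the same number correlated at over 0.1 (0.0550 to 0.447), and 12 of 12 libraries correlated best with their own number. The block moved no other count of calls among the 6 genes except *Nr6a1* in 1.0 mM gels (2 to 3).

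Leaving out 1 library gave 1 to 3 called genes between embedding times in 1.0 mM gels (1 without 96 h/1.0 mM replicate 3, 3 without 72 h/1.0 mM replicate 2), 1 in 1.5 mM gels, 3 across gels and 0 in every comparison of gels. Over all genes the calls ranged from 731 to 1680, 1181 to 4102 and 3944 to 5671 between embedding times (1.0 mM, 1.5 mM, both), and between gels from 0 to 26 at 96 h (12 without 96 h/1.5 mM replicate 1, 26 without replicate 3) and 2 to 80 across times (80 without 72 h/1.5 mM replicate 1). Values not called changed sign for *Cdx2* between embedding times in 1.5 mM gels (-0.26 to 0.13), *Gdf11* there (-0.067 to 0.084), across gels (-0.11 to 0.00024) and between gels at 96 h (-0.028 to 0.12), and for *Nkx1-2* (-0.43 to 0.073) and *Nr6a1* (-0.086 to 0.054) between gels at 72 h. *Gdf11* also reversed to -0.022 in 1.5 mM gels with upper quartile normalization, and between gels at 96 h to -0.0038, -0.0048 and -0.0038 in the FPKM fits. The Cdx shares ranged over -9.44 to -6.07 percentage points for *Cdx1*, 5.08 to 8.03 for *Cdx2* and -0.069 to 1.41 for *Cdx4*.

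In 1.0 and 1.5 mM gels taken alone, where the permutation test cannot go below 0.1, the ratios to *T* differed by -2.91 and -2.56 for *Cdx1*, -1.70 and -1.43 for *Cdx2*, -3.33 and -2.11 for *Nkx1-2*, -1.33 and -1.41 for *Gdf11*, and -0.89 and -0.82 for *Nr6a1*. Depth limits *Cdx4* (6 counts in all), *Cdx1* (129) and *Nkx1-2* (271).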
